A study of Mus musculus with 6 samples.

Results

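The alpha and beta globin genes were followed in spleens of adult F1 females from 2 crosses, through every probe set whose platform annotation holds a symbol starting with Hba- or Hbb-. They cover 9 of the 19324 gene symbols on the platform, read by 15 of the 45101 probe sets. The rule itself reads the annotation and no measured value. No probe set with the symbol Ahsp was found, and that gene is not analysed here. The groups are (AKR/J x FVB/NJ)F1, called AKR F1, with 3 spleens, and (DBA/2J x FVB/NJ)F1, called DBA F1, with 3 spleens. All animals share the inbred parent FVB/NJ, no treatment beyond anaesthesia before collection is given, and the age is given only as adult. An Affymetrix array was run for each spleen, and the comparison asks how basal expression differs between these genotypes. Values are on the log2 scale as deposited, and each difference is AKR F1 minus DBA F1, so that a negative one means a lower level in AKR F1.

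Adult haemoglobin is a tetramer of a pair of alpha chains and a pair of beta chains, each holding a heme group. In the mouse the alpha genes Hba-a1 and Hba-a2 lie in a cluster with the embryonic gene Hba-x. The beta cluster holds adult genes beside the embryonic Hbb-y and Hbb-bh1, which primitive red cells of the embryo use. Inbred strains carry different beta globin haplotypes: the reference strain C57BL/6J has the adult genes Hbb-bs and Hbb-bt, and Hbb-b1 and Hbb-b2 are the adult genes of another haplotype. The labels do not say which haplotypes these animals carry. The adult mouse spleen makes red cells in its red pulp, so globin transcripts there come from precursors and from young red cells that still hold RNA.

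The bases just before the start of several adult and embryonic globin genes are shown as background. Hbb-bs and Hbb-bt are read below only by a probe set that also names Hbb-b1 and Hbb-b2. Hbb-b2 and Hbb-bh1, which have probe sets of their own below, had no window among the promoter sequences used. Sequences are RefSeq's for build GRCm38.p6, 100 bases ending 1 base before the start of the gene, written in the gene's own direction. Short motifs were searched on both strands, and capitals mark their matches, overlapping ones included. These were the CCAAT box, the CACCC box that the KLF family binds, the erythroid motif GATA and, as the core promoter element, TATAA. The windows are chr11:32283572-32283671 (plus strand) for Hba-a1, chr7:103827929-103828028 (minus) for Hbb-bs, chr7:103813924-103814023 (minus) for Hbb-bt, chr11:32276500-32276599 (plus) for Hba-x and chr7:103853208-103853307 (minus) for Hbb-y.
Hba-a1: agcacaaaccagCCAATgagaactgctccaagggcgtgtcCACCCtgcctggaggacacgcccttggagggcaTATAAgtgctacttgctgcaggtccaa
Hbb-bs: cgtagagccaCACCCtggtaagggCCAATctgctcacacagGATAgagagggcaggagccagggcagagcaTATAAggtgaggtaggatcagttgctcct
Hbb-bt: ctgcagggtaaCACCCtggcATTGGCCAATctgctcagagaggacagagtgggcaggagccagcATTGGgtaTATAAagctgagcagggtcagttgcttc
Hba-x: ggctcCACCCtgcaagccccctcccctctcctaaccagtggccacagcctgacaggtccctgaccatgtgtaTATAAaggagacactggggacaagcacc
Hbb-y: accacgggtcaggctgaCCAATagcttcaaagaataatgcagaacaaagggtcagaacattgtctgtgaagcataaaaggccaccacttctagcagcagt

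The table of promoters held 7 Hba- and Hbb- genes, among which Hba-a1 and Hba-a2 share an unbroken run of 97 bases in these windows. The longest run shared by Hbb-bs and Hbb-bt is 14 bases. The TATAA motif was found in 5 of the 7 windows, against 10.2% of all 32851 promoter windows of this length. The CACCC box was found in 5 of them, against 27.2% of all windows. The CCAAT box was found in 5, against 18.9%, and GATA in 2 (Hbb-bs and Hbb-bh2), against 25.0%. The window of Hbb-bh2, chr7:103840522-103840621 (minus), lies inside the gene as annotated (103838801-103840734), not just before its start. In Hba-a1 the CCAAT box begins 88 bases before the start, the CACCC box 60 and the TATAA motif 27. In Hbb-bs the CACCC box begins 90 bases before it, the CCAAT box 76 and the TATAA motif 29. A match describes the letters only.

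The probe sets fell into 3 ranges of level. The 4 that name several adult genes at once were at the very top of the arrays, 3 of alpha globin (Hba-a1 and Hba-a2) and 1 of beta globin (Hbb-bt, Hbb-bs, Hbb-b2 and Hbb-b1). In the middle of the range were 3, namely 2 of Hbb-b2, of which 1427865_at was close to the dim range, and 1 of Hba-a2. Below the 40th percentile of mean level, and so nearer to background, were 8. These were the probe sets of the embryonic genes Hbb-y, Hbb-bh1 and Hba-x and the single-symbol probe set of Hba-a1. The highest of these, 1437810_a_at of Hbb-bh1, was at percentile 39.1, close to the middle range. The file carries no saturation or detection flags, so nearness to the top and to background is read from the values.

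Globin signal was lower in AKR F1 at 5 of these probe sets: 1 of bright alpha globin, 1 of Hbb-b2, 2 of the embryonic Hbb-bh1 and 1 of the embryonic Hba-x. Of the 15, these 5 passed an adjusted p of 0.05 in limma with a lower level in AKR F1, 0 passed in the other direction (1 at an unadjusted p under 0.05, the dimmer probe set of Hbb-b2) and 10 did not pass. Over all 45037 probe sets tested, 5.26% passed with a lower level in AKR F1. All 3 arrays of AKR F1 lay below all 3 of DBA F1 at 11 of the 15, against 18.3% of all probe sets. The median difference of the 15 was -0.23, and that of all probe sets was -0.02. Several probe sets share a gene or an accession, so the 15 are not independent. In whole spleen, fewer red cell precursors and less globin RNA per cell cannot be told apart.

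**Figure D1:**
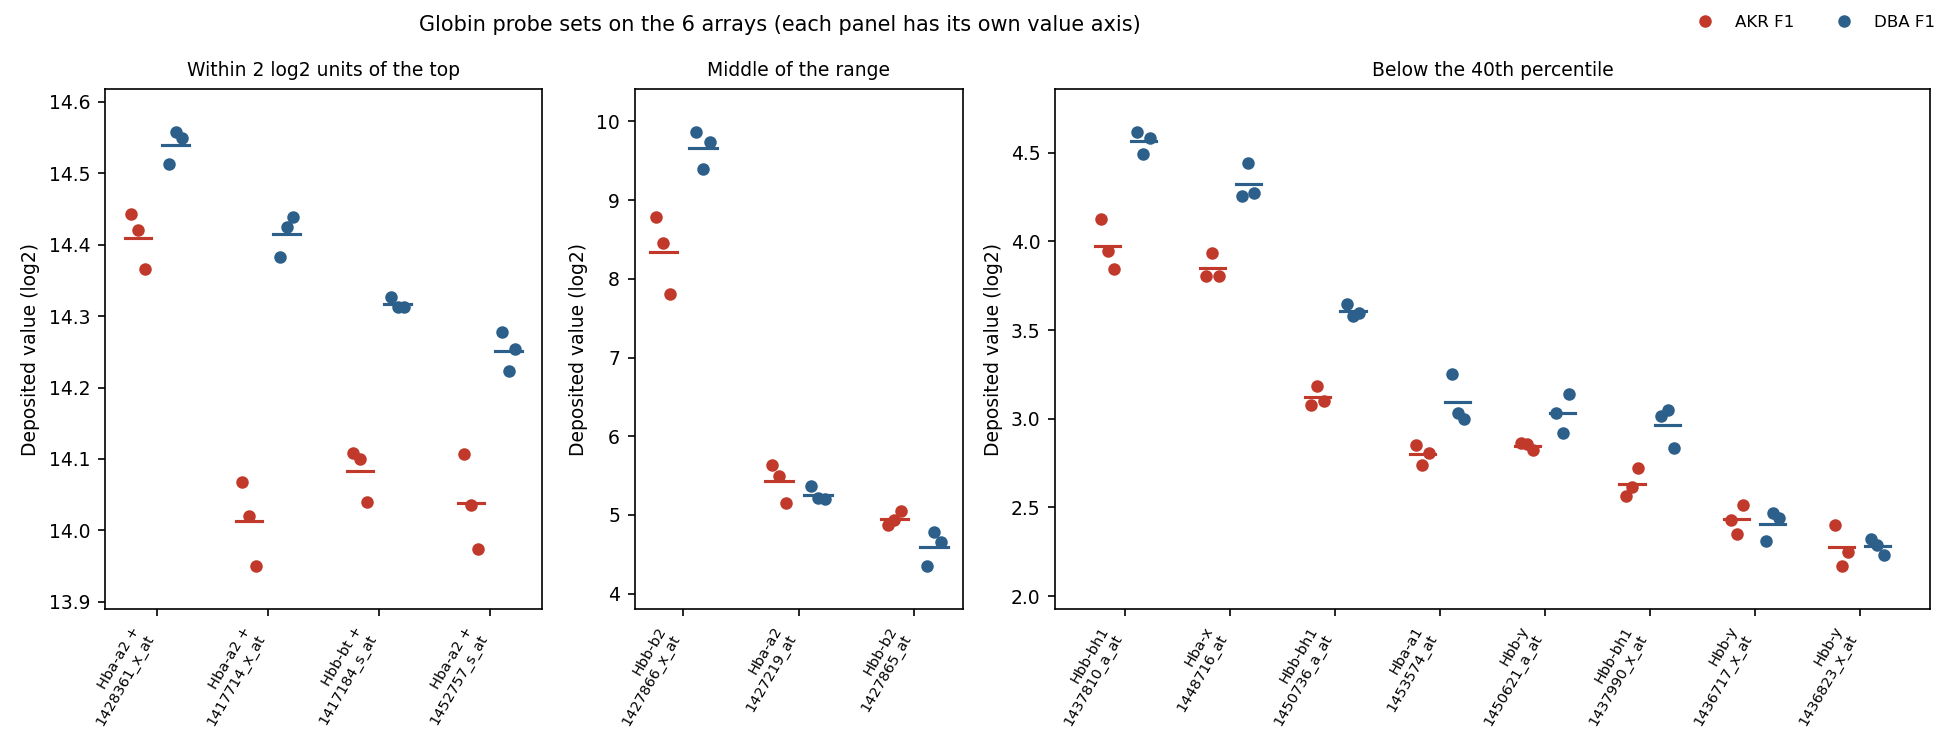
Deposited log2 value of each globin probe set on the 3 arrays of AKR F1 (red, left) and the 3 of DBA F1 (blue, right), with bars at the group means and a plus sign where the annotation holds further globin symbols. At the 4 probe sets near the top all values lie between 13.95 and 14.56, and AKR F1 is below DBA F1 at each.

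Adult alpha globin was read by 3 bright probe sets, each of which names both Hba-a1 and Hba-a2, so the 2 genes are not separated. The clearest difference was at 1417714_x_at, which stood at 14.07, 14.02 and 13.95 in AKR F1 and at 14.38, 14.42 and 14.44 in DBA F1. The groups did not overlap, and it was the only one of the 4 top probe sets past the threshold. The difference was -0.40 ± 0.08 (SE, limma adjusted p = 0.0211), between values near the top of the scale, so no fold is given. The call was lost when most single arrays were left out: the limma adjusted p was 0.0566, 0.0614 and 0.0686 without replicates 1, 2 and 3 of AKR F1, 0.0693 and 0.0677 without replicates 2 and 3 of DBA F1, and 0.0876 after quantile normalization.

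The second alpha globin probe set, 1428361_x_at, was the brightest of all probe sets on each of the 6 arrays. It stood at 14.44, 14.42 and 14.37 in AKR F1 and at 14.51, 14.56 and 14.55 in DBA F1. Again the groups did not overlap, and the gap was too small for the threshold, at -0.13 ± 0.07 (limma adjusted p = 0.271). Because it held the top rank everywhere, quantile normalization gives it the same value on all arrays, and its difference there is 0 by construction. The third, 1452757_s_at, comes from the same accession. It stood at 14.11, 14.04 and 13.97 in AKR F1 and at 14.28, 14.22 and 14.25 in DBA F1. Its groups did not overlap either, with a difference of -0.21 ± 0.08 (adjusted p = 0.110). It passed only with a trended and robust variance, where the adjusted p was 0.0268. At all 3 probe sets, replicate 3 of AKR F1 was the lowest of the 6 arrays.

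Adult beta globin was read near the top by 1417184_s_at, which names 4 adult beta genes of both haplotypes. It stood at 14.11, 14.10 and 14.04 in AKR F1 and at 14.33, 14.31 and 14.31 in DBA F1. The groups did not overlap and lay further apart than either spread within. In limma the difference was -0.23 ± 0.07 (adjusted p = 0.0764), which does not pass, and with a trended and robust variance the adjusted p was 0.0123. The balance of the chains was compared as the mean of the 3 bright alpha values minus the beta value on each array. It differed by -0.01 between AKR F1 and DBA F1, with SDs of 0.02 in AKR F1 and 0.02 in DBA F1 (n = 3 each), and a two-sided exact permutation test gave p = 0.5. The smallest p that 3 against 3 arrays allow is 0.1. Values this near the top of the scale do not bound the balance in amounts of RNA.

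Differences were small for most probe sets at the top of the range. By mean level, 191 probe sets lay within 2 log2 units of the highest value in the table, 4 of them globin. Among the 191, 5 passed in limma with a lower level in AKR F1 (2.62%), and the median size of difference was 0.08. The 4 globin differences, from -0.40 to -0.13, were larger in size than that median. Of the 191, 7 had a difference of 1 or more, and at each of these replicate 3 of DBA F1 stood far below the other 5 arrays. The 6 of these 7 with a symbol here name amylases, elastases and other enzymes of pancreatic exocrine cells. The mean of 6 measured genes of those cells was 13.93, 13.93 and 13.96 in AKR F1 and 13.47, 13.79 and 6.63 in DBA F1. Pancreatic transcripts therefore share the top of the range with globin in 5 of the 6 arrays, and their part in the globin differences was not tested. Without replicate 3 of DBA F1, the bright globin differences were -0.39, -0.13, -0.21 and -0.24 for 1417714_x_at, 1428361_x_at, 1452757_s_at and 1417184_s_at. On the other 5 arrays the mean of the pancreatic genes was still higher in AKR F1, so leaving this array out does not test their part.

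**Figure D2:**
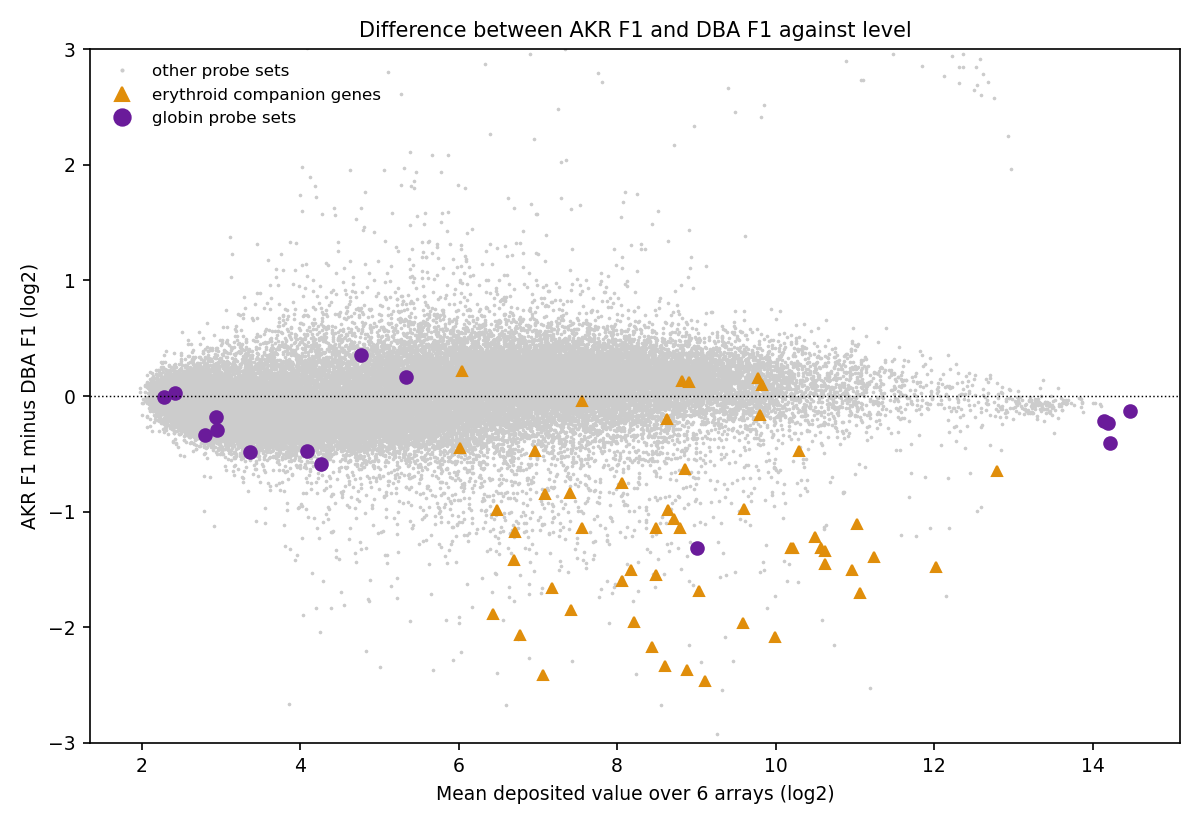
Difference between crosses (AKR F1 minus DBA F1, log2) against mean level over 6 arrays for all probe sets (grey), the erythroid companion genes (orange triangles) and the 15 globin probe sets (purple). The 4 globin probe sets at the far right lie between -0.40 and -0.13, the one at a mean of 9.004 lies at -1.32, and 43 probe sets beyond 3 log2 units fall outside the plot.

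The largest globin difference was found away from the top of the range, at 1427866_x_at, whose single symbol is the adult beta gene Hbb-b2. It stood at 8.78, 8.45 and 7.80 in AKR F1 and at 9.86, 9.39 and 9.73 in DBA F1. The groups did not overlap, although the spread within AKR F1 was wide, with replicate 3 lowest. The means were 8.35 ± 0.50 and 9.66 ± 0.24 (SD, n = 3 each) in AKR F1 and DBA F1. The difference was -1.32 ± 0.23 (SE, limma adjusted p = 0.0172), a level 2.49-fold lower in AKR F1, with a 95% interval of -1.85 to -0.78. It kept its side of the threshold in 11 of 12 alternatives and lost it without replicate 3 of DBA F1 (difference -1.28, adjusted p = 0.0543). The suffix x marks a probe set with probes that can match other sequences. The probe sequences were not used here, so which beta globin haplotype the Hbb-b2 probe sets match was not checked.

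The other Hbb-b2 probe set, 1427865_at, comes from the same accession and had a difference of the other sign. It stood at 4.87, 4.94 and 5.05 in AKR F1 and at 4.35, 4.78 and 4.66 in DBA F1. Here AKR F1 was above DBA F1 without overlap, by 0.36 ± 0.12 (limma adjusted p = 0.0891), which does not pass. The order of the 6 arrays was exactly reversed between the 2 probe sets: from lowest to highest at 1427866_x_at, and from highest to lowest at 1427865_at, the arrays ran through replicates 3, 2 and 1 of AKR F1 and then replicates 2, 3 and 1 of DBA F1. This was noticed in the values and is given as a description. A single-symbol probe set of Hba-a2, 1427219_at, stood at 5.64, 5.49 and 5.16 in AKR F1 and at 5.36, 5.21 and 5.20 in DBA F1. Those groups overlapped (0.17 ± 0.13, adjusted p = 0.398). At these levels, around or below the array medians of 5.04 to 5.10, neither probe set was lower in AKR F1. On replicate 1 of DBA F1, 1427865_at (4.35) lay below the 40th percentile of that array (4.37), so it is close to the dim range.

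**Figure D3:**
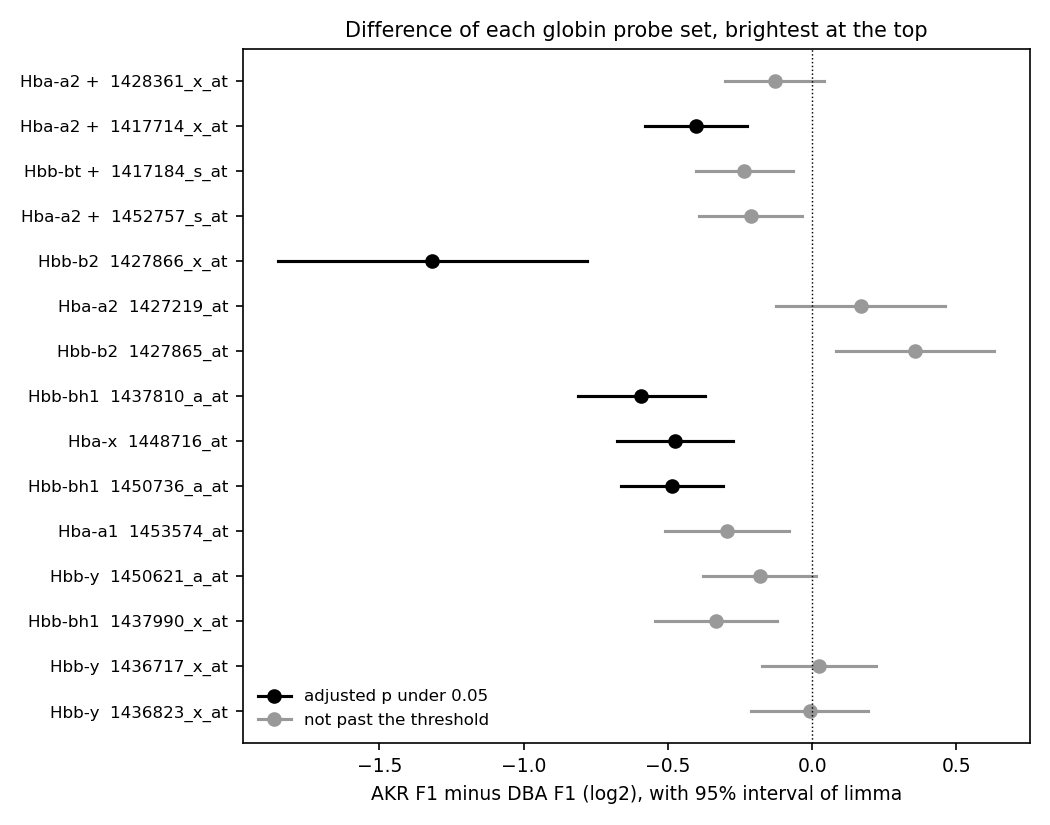
Difference between crosses (AKR F1 minus DBA F1, log2) of each globin probe set with limma's 95% interval, ordered by mean level with the brightest at the top; black marks an adjusted p under 0.05. Hbb-b2 1427866_x_at stands apart at -1.32, and the 2 middle probe sets 1427219_at and 1427865_at lie above 0.

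Embryonic globins lay below the 40th percentile of mean level, and 3 of their 7 probe sets passed with a lower level in AKR F1. The brightest, Hbb-bh1 1437810_a_at, lay above the 40th percentile of each DBA F1 array (4.37, 4.38 and 4.36), close to the middle range. Hbb-bh1, a beta-like chain of primitive red cells, had 3 probe sets. At 1437810_a_at it stood at 4.13, 3.94 and 3.84 in AKR F1 and at 4.62, 4.49 and 4.58 in DBA F1 (difference -0.59 ± 0.10, limma adjusted p = 0.0131). At 1450736_a_at it stood at 3.08, 3.19 and 3.10 in AKR F1 and at 3.65, 3.58 and 3.60 in DBA F1 (-0.49 ± 0.08, adjusted p = 0.0122). Neither pair of groups overlapped, and both calls held in all 11 alternatives that could test them, with adjusted p up to 0.0475 and 0.04995. The third, 1437990_x_at, stood at 2.56, 2.61 and 2.72 in AKR F1 and at 3.02, 3.05 and 2.83 in DBA F1. It did not pass (-0.33 ± 0.09, adjusted p = 0.0548), and passed with array weights (0.0432) and with a trended and robust variance (0.0435).

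Hba-x, which encodes the embryonic alpha-like zeta chain, stood at 3.81, 3.93 and 3.80 in AKR F1 and at 4.26, 4.44 and 4.27 in DBA F1 at 1448716_at. The groups did not overlap, and the difference was -0.48 ± 0.09 (limma adjusted p = 0.0194). The call was lost when AKR F1 replicate 1 (adjusted p = 0.0682) or 3 (0.0654) or DBA F1 replicate 2 (0.0654) or 3 (0.0524) was left out. Hbb-y, the epsilon-like beta chain of primitive red cells, did not pass at any of its 3 probe sets. The highest of them, 1450621_a_at, stood at 2.86, 2.86 and 2.82 in AKR F1 and at 3.03, 2.92 and 3.14 in DBA F1 (-0.18 ± 0.08, adjusted p = 0.186). The other 2, 1436717_x_at and 1436823_x_at, lay between 2.17 and 2.52 on all arrays, with differences of 0.02 and -0.01 whose sign changed between alternatives. The single-symbol probe set of adult Hba-a1, 1453574_at, lay in the same range, with means of 2.80 ± 0.06 in AKR F1 and 3.10 ± 0.14 in DBA F1 (SD, n = 3 each; -0.29 ± 0.09, adjusted p = 0.0773).

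Dim probe sets in general leaned the same way on these arrays. Of 14860 probe sets with a mean from 3 to 5, 1341 passed in either direction (9.02%), and 1014 of those were lower in AKR F1. The part of this lean in the embryonic calls was not tested. Those calls are given as signal differences of the probe sets, not as embryonic globin synthesis.

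Most genes that act with globin in red cell precursors, here called erythroid companion genes, were lower in AKR F1. Of 57 such genes listed, 52 were measured through a probe set with 1 symbol, and 40 passed in limma with a lower level in AKR F1. With a higher level 0 passed, and 0 had an unadjusted p under 0.05. Over 18193 genes taken the same way, 6.17% passed with a lower level in AKR F1. The list was chosen with earlier results of these data known, so setting its count beside that share is a description, not a test. The median difference of the 52 was -1.27, and that of all 18193 genes was -0.01. The mean over the 52 was 8.31, 8.41 and 7.996 in AKR F1 and 9.07, 9.53 and 9.66 in DBA F1, with no overlap. In AKR F1 replicate 3 was the lowest for this mean, as it was for the 4 bright globin probe sets and for Hbb-b2 1427866_x_at. With 1 array left out, 26 passed without AKR F1 replicate 1, 24 without AKR F1 replicate 3 and 25 without DBA F1 replicate 2. On the same arrays 4 of 4 T cell markers (0.41 to 0.69) and 1 of 3 B cell markers were higher in AKR F1, against 6.29% of the 18193 genes, whereas 0 of 4 megakaryocyte and 0 of 5 neutrophil markers passed in limma in either direction. The megakaryocyte markers had a median difference of -0.32, with 3 of the 4 lower in AKR F1 at an unadjusted p under 0.05, and the neutrophil markers -0.41, with 0 of 5. The part of these cell types in the globin differences was not tested.

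**Figure D4:**
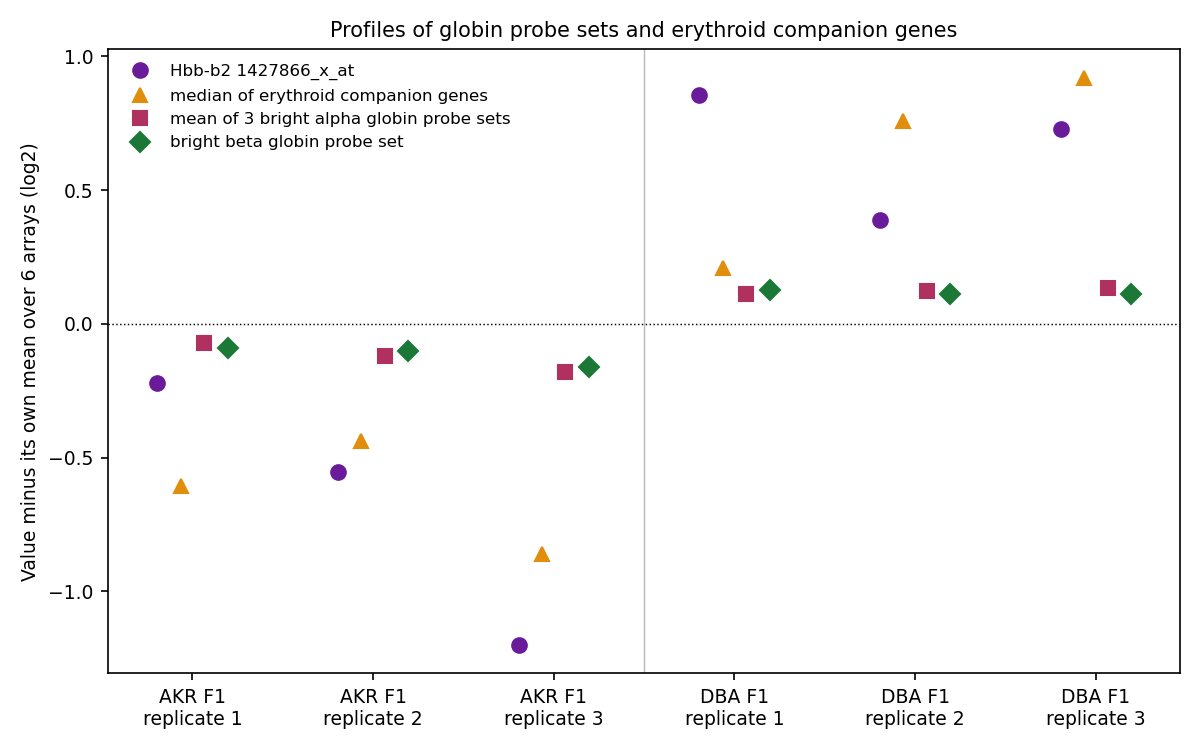
Value on each array minus its own mean over the 6 arrays (log2) for Hbb-b2 1427866_x_at, the median of the 52 erythroid companion genes, the mean of the 3 bright alpha globin probe sets and the bright beta globin probe set. The bright globin points stay between -0.18 and 0.14, whereas Hbb-b2 runs from -1.20 to 0.86 and the companion median from -0.86 to 0.92.

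Among 14 regulators of globin genes, 8 were lower in AKR F1. Nfe2, which encodes the erythroid subunit of a factor that binds globin enhancers, stood at 7.72 ± 0.29 in AKR F1 and 9.26 ± 0.24 in DBA F1 (-1.54 ± 0.17 SE, limma adjusted p = 0.00307). Sox6, a repressor of embryonic beta globin in definitive red cells of the mouse, differed by -2.07 ± 0.29 (adjusted p = 0.00842), and Tal1, a master factor of the lineage, by -1.69 ± 0.25 (adjusted p = 0.00894). Of genes named here after their values were seen, Klf1, the activator of adult beta globin, differed by -1.96 (adjusted p = 0.0185) and Gata1 by -1.504 (adjusted p = 0.0148). Bcl11a and Zbtb7a, repressors of embryonic and fetal globin that were likewise chosen after their values were seen, stayed short of the threshold at 0.13 and 0.22. Which cells of the whole spleen the signal of Bcl11a and Zbtb7a comes from was not tested.

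Of 9 measured genes of heme synthesis, 8 were lower in AKR F1 and 1 did not pass. Fech adds the iron that completes heme. It stood at 10.68, 10.51 and 10.22 in AKR F1 and at 11.50, 11.45 and 11.78 in DBA F1. The difference was -1.11 ± 0.14 (limma adjusted p = 0.00517). Urod, an enzyme midway along the pathway, differed by -1.31 ± 0.18. Alas2, the first enzyme, had the profile most like Hbb-b2 1427866_x_at among the 52 genes, a comparison added after its values were seen. The measure was the root mean square difference over the 6 arrays between profiles centred on their own mean, and it came to 0.12 for Alas2. Next came Slc25a37, the mitochondrial iron importer, at 0.21, and Fech at 0.23. The same measure for the 4 bright globin probe sets gave Ulk1, Cat, Lmo2, Steap3 and Ldb1 among their 3 nearest genes. Because it compares sizes as well as shapes, it sets probe sets of small difference nearest to genes of small difference.

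Iron uptake was lower in AKR F1 at 2 of 4 genes. Slc25a37 differed by -1.22 ± 0.15 (limma adjusted p = 0.00497) and the transferrin receptor Tfrc by -1.46 ± 0.24 (adjusted p = 0.0139). The iron transporter Slc11a2 and the ferrireductase Steap3 stayed short of it at -0.48 and -0.45. All 12 measured red cell membrane genes were lower in AKR F1, among them Epb42 (-1.85), the actin-capping Tmod1 (-1.42) and the Rh-associated Rhag (-2.34). Of 7 red cell enzymes 5 were lower, including the antioxidant Prdx2 (-1.39), the carbonic anhydrase Car2 (-1.48) and the red cell pyruvate kinase Pklr (-0.99). Of 6 measured maturation genes 5 were lower, including Trim10 (-2.37), Xpo7 (-1.31) and Ube2o (-0.84), a ubiquitin ligase that clears unpaired alpha globin in reticulocytes.

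Of 5 genes that sense, export or break down heme, 2 were lower in AKR F1. Eif2ak1, the heme-regulated kinase that matches globin translation to heme, differed by -0.49 ± 0.11 (limma adjusted p = 0.0307), and the biliverdin reductase Blvrb by -1.12 ± 0.21 (adjusted p = 0.0211). Heme oxygenase Hmox1 (-0.03), Blvra (0.02) and the heme exporter Flvcr1 (0.20) did not pass. Flvcr1 was higher in AKR F1 at an unadjusted p under 0.05 in limma, with no overlap between the groups. Of 4 genes that handle haemoglobin or heme outside red cells, 0 passed in limma and 1, the dim Hpx, had an unadjusted p under 0.05. Haptoglobin Hp had a value of -0.17, its receptor Cd163 -0.38, hemopexin Hpx -0.21 and its receptor Lrp1 0.12.

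Beside the alpha cluster, the gene Snrnp25 was lower in AKR F1, at 8.25, 8.18 and 8.21 against 8.56, 8.60 and 8.55 in DBA F1 (-0.36 ± 0.07, limma adjusted p = 0.0270). Nprl3, whose introns hold the alpha globin enhancers, Mpg and Rhbdf1 stayed short of the threshold at -0.12, -0.14 and 0.17. Globins of other tissues were in the middle of the range. The neuronal Ngb was lower in AKR F1 by -0.36, at levels of 4.96 in AKR F1 and 5.32 in DBA F1 (limma adjusted p = 0.0486). Cygb (0.21) and the muscle globin Mb (-0.12) did not pass. Cygb was higher in AKR F1 at an unadjusted p under 0.05 in limma, with no overlap between the groups.

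The 6 arrays had medians between 5.04 and 5.10 over the probe sets tested. Markers checked the tissue. Among 3 measured B cell markers, Cd79a averaged 12.03 in AKR F1 and 11.67 in DBA F1. Of the 4 red pulp macrophage markers 0 passed in limma, and 3 had a difference below 0, with a median of -0.06 over the 4. The exception, Spic, averaged 9.74 in AKR F1 and 9.62 in DBA F1. Of the 2 spleen factors, Tlx1 averaged 7.70 in AKR F1 and 7.59 in DBA F1, and Nkx2-5, nearer to the medians, 6.10 in AKR F1 and 6.06 in DBA F1. Pancreatic exocrine markers were near the top in 5 of 6 arrays, as given above.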

How the data were processed

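The authors deposited log2 values for 45101 probe sets, already on a common scale between arrays; MAS5 and RMA are the tools named per the submitters' processing notes, and which made these values is not stated. Per the labels' protocols, snap-frozen spleens gave Trizol RNA labelled with biotin. The files hold no counts, detection calls or saturation flags, so the number of arrays limits precision. After 64 control probe sets were left out, 45037 were tested with limma 3.58.1 in R 4.3.3 (lmFit and eBayes, no covariate, Benjamini-Hochberg over all 45037, threshold 0.05). Each probe set had 4 residual degrees of freedom. Labels name separate spleens, and p-values measure the spread between these samples.

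A bright probe set has a mean within 2 log2 units of the highest value, 14.56, and a dim one lies below the 40th percentile. Companion genes took the brightest probe set with 1 symbol. Of each role the text names up to 3 genes past the threshold (by adjusted p) and may name all of a role of up to 6 genes, besides the companion genes nearest in profile; others are marked as chosen after their values were seen. Cell type markers are given as counts with single examples. Names follow the platform annotation (34945 probe sets with 1 symbol, 932 with several, 9160 with none listed). The members and lists were chosen with earlier results of these data known. On simulated arrays of this comparison (45037 probe sets), 15, 41, 47 and 50 of 50 changes of 0.5, 1, 1.5 and 2 log2 units were recovered. Only these were changed there, at probe sets drawn from all levels, whereas 4688 passed in the data. The rates need not hold for the data or near the top of the scale. Alternatives were median centring, quantile normalization, leaving out dim probe sets, a trended and robust variance, array weights, a block on the replicate number, each array left out in turn, and averaging all probe sets of a gene.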

Additional observations from a re-analysis of the deposited data

How the results depend on the processing

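Of the 15 globin probe sets, 5 passed as deposited, 5 after median centring, 4 after quantile normalization, 6 with array weights, 2 without dim probe sets (where 8 of the 15 are not tested) and 8 with a trended and robust variance. With 1 array left out the count was 2 to 5, and that of companion genes was 24 to 43, against 40. All globin and companion calls in these settings were lower in AKR F1. The number of probe sets past the threshold was 1001 to 4793 with 1 array left out, against 4688. Fewer arrays enter those fits; the cause of the other shifts was not tested. The share of all passing probe sets with AKR F1 above DBA F1 was 49.4% as deposited, 61.9% after median centring, 45.0% after quantile normalization and 58.3% without dim probe sets. The balance of alpha and beta globin was -0.0482 after quantile normalization, against -0.0139 as deposited, and lay between -0.0269 and -0.00575 with 1 array left out. Hbb-y 1436823_x_at had values of 0.0234 after median centring and 0.0144 after quantile normalization, and -0.0725 to 0.0438 with 1 array left out. Hbb-y 1436717_x_at had -0.00898 with array weights and -0.0227 to 0.0648 with 1 array left out. Same-numbered arrays deviated together with r = 0.20, 0.11 and 0.05 across probe sets. Only replicate 3 of DBA F1 correlated best with another number (r = 0.06, with replicate 2 of AKR F1). Whether the number marks a pairing was not settled, and the main fit does not use it. With the replicate block 5 globin probe sets, 42 companion genes and 4658 probe sets passed. The small number of arrays and the nearness of the bright probe sets to the top of the scale limit what the bright probe sets can show.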

Other observations

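The median difference of the red cell companion genes was below 0 in each range of level. Among the 52 companion genes, the median difference was -1.08 over 8 genes with a mean under 7, -1.14 over 23 from 7 to 9, -1.31 over 16 from 9 to 11 and -1.39 over 5 at 11 or more. Gpx1, an antioxidant enzyme found in many cell types and the brightest of them, named after its values were seen (12.47 in AKR F1 and 13.12 in DBA F1), differed by -0.65. Above a mean of 14 there were 8 probe sets, and the 4 of globin held the 4 highest means. Of the other 4, 3 have a symbol here, Ighm, Tpt1 and Rps29, and differed by -0.09, -0.06 and -0.06.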
